A study of Homo sapiens with 12 samples.

Results

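The 6 genes described here are TRIB3, ATF3, CARS, SESN2, GRB10 and ARHGEF2, a group linked to the transcription factor ATF4 and to cellular stress. They were chosen by their numbers of NONO peaks, which lay mainly in the lists of compound-treated cells, so the excess over DMSO is how they were picked and is given below as a description with no test. All peaks whose annotated gene was 1 of the 6 were taken, 172 of 26351 peaks, in 6 of 1620 genes that held a peak under a single gene name. NONO eCLIP had been carried out in 22Rv1, an established human prostate cancer cell line. In eCLIP, UV light crosslinks proteins to RNA, an antibody pulls the protein down, here a rabbit antibody to NONO, and the RNA fragments it holds are sequenced alongside an input library. Cells received SKBG-1(R) at 20 µM, its stereoisomer SKBG-1(S) at 20 µM, or DMSO alone, each for 4 h and each with 0.04% DMSO, after 40 h of growth. Each group had 2 immunoprecipitation libraries with matched inputs and gave 2 peak lists, 6 in all.

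NONO, a DBHS family protein found in paraspeckles, binds many nascent transcripts, often in introns. In the integrated stress response, kinases that sense amino acid shortage, unfolded protein, viral RNA or haem loss phosphorylate the translation factor eIF2. General translation then falls while the ATF4 mRNA is translated better, and ATF4 activates genes of amino acid supply, tRNA charging and feedback control through C/EBP-ATF response elements. TRIB3, ATF3, CARS and SESN2 are well-known ATF4 targets. Neither RNA levels nor ATF4 binding were measured in the files analysed here, so the name of the group was not checked by these data. A peak is a stretch with at least 8-fold more reads in the immunoprecipitate than in input, so a peak in compound lists cannot show by itself whether more of the RNA or more NONO per RNA was present, and this was not tested.

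The lists differed in length within each group as well as between groups. They held 1953 and 14847 peaks for SKBG-1(R) replicates 1 and 2, 1237 and 3967 for SKBG-1(S), and 669 and 3678 for DMSO, so the SKBG-1(R) replicate 2 list stood apart. Read totals are unknown. A gene missing from a list is therefore not shown to be unbound, and numbers are given both as deposited and per 10000 peaks of the list. Whether replicates came from separate cultures is not stated in the labels, and p-values then capture nothing beyond the spread among these samples, possibly technical. As a check of the cell type, 4 of the 10 prostate luminal markers named in GENCODE 29 held a peak, such as SPDEF with 55 over all lists, and 0 of 9 markers of fibroblasts, leukocytes and endothelium did.

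NONO peaks on the 6 transcripts were frequent in every compound list and nearly missing from DMSO. The SKBG-1(R) lists held 26 and 74 of them and the SKBG-1(S) lists 24 and 44, against 0 and 4 in the DMSO lists. Scaled to list length these were 133 and 49.8 peaks per 10000 in the SKBG-1(R) lists and 194 and 111 in the SKBG-1(S) lists, against 0 and 10.9 in the DMSO lists. The compound values did not overlap the DMSO values on either scale. When every list was shortened to its 669 peaks of highest −log10 p, the SKBG-1(R) lists held 12 and 5, the SKBG-1(S) lists 15 and 10, and the DMSO lists 0 and 0. Peaks of 1 list that touched each other were common, and joining them left 120 of the 172.

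**Figure D1:**
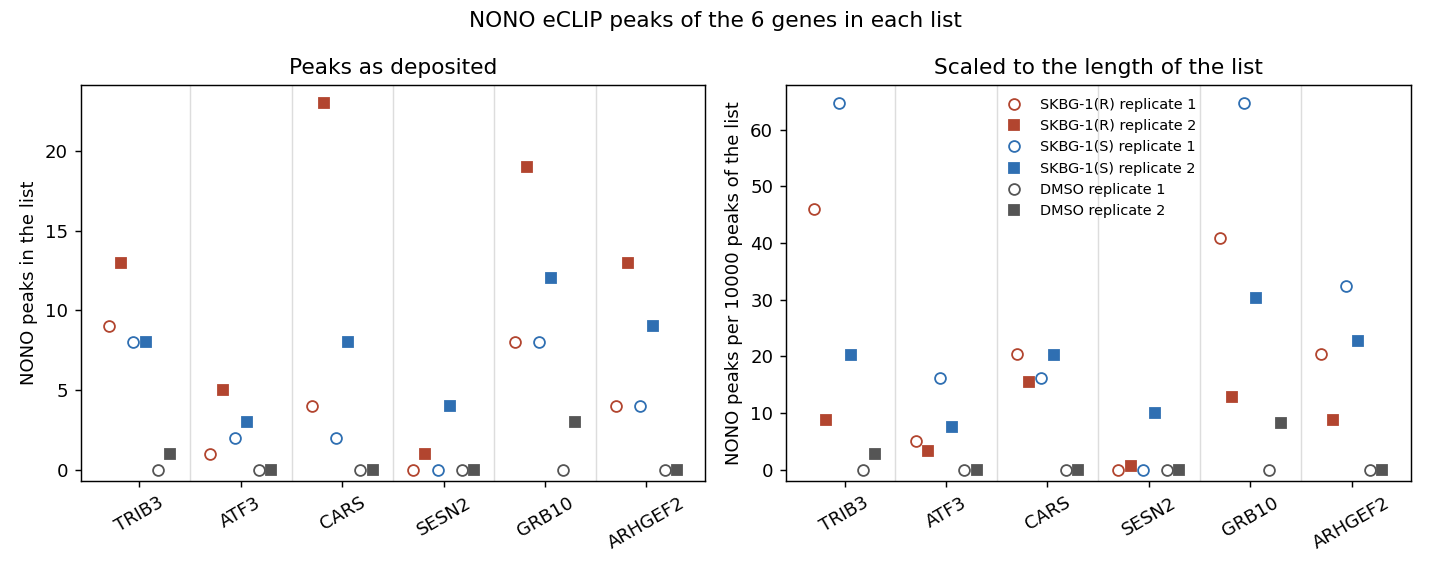
NONO peaks of each gene in each of the 6 lists, as deposited (left) and per 10000 peaks of the list (right); each point is 1 list, open circles replicate 1 and filled squares replicate 2. DMSO replicate 1 held 0 peaks in every gene, and DMSO replicate 2 held 1 in TRIB3 and 3 in GRB10.

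ATF3 encodes a stress-induced transcription factor of the ATF/CREB family. It held 1 and 5 peaks in the SKBG-1(R) lists and 2 and 3 in the SKBG-1(S) lists, against 0 and 0 in the DMSO lists, 11 in all. All 11 fell within 508 nt of the intron that follows an internal group of starts (gene at chr1:212565334-212620777, plus strand, GRCh38). The site at chr1:212609245-212609353, a proximal intron by the authors' class, held 1 peak in each of the 4 compound lists. Its log2 enrichment over input, the authors' own value, was 3.12 and 3.39 in the SKBG-1(R) lists and 3.78 and 4.54 in the SKBG-1(S) lists. A second shared site at chr1:212609451-212609557 had 3.30 in replicate 2 of SKBG-1(R) and 4.71 in replicate 1 of SKBG-1(S). These were the 2 of its 7 regions that the compounds shared.

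TRIB3 encodes a pseudokinase that binds ATF4 and AKT and is induced in the stress response. It held 9 and 13 peaks in the SKBG-1(R) lists and 8 and 8 in the SKBG-1(S) lists, against 0 and 1 in the DMSO lists. Per 10000 peaks these were 46.1 and 8.76 in the SKBG-1(R) lists and 64.7 and 20.2 in the SKBG-1(S) lists, against 0 and 2.72 in the DMSO lists. Its 39 peaks covered a window of 1224 nt, 3.52% of the gene (chr20:362835-397559, plus strand), over a 5′ exon and the intron after it; 30 were in the proximal intron class and 9 in 5′ UTRs. The highest enrichment of any member peak was found here.

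The strongest TRIB3 site, chr20:381675-381961, held 3 and 6 peaks in the SKBG-1(R) lists and 3 and 2 in the SKBG-1(S) lists. Its highest log2 enrichment was 6.23 and 4.26 in the SKBG-1(R) lists and 4.45 and 3.48 in the SKBG-1(S) lists; 6.23, in SKBG-1(R) replicate 1, is 74.9-fold over input. The site next to it, chr20:381425-381674, reached 4.13 and 3.58 in the SKBG-1(R) lists and 4.93 and 3.43 in the SKBG-1(S) lists. Further into the intron, chr20:382034-382153 was the TRIB3 site seen in 5 lists, with 4.43 and 4.96 in the SKBG-1(R) lists, 4.26 and 4.19 in the SKBG-1(S) lists and 4.83 for DMSO replicate 2. Enrichment there was as high in the DMSO list as in compound lists, so TRIB3 RNA was not without NONO contact in DMSO. The site at chr20:382172-382229 was in the replicate 2 lists of both compounds, at 3.93 with SKBG-1(R) compared to 3.13 with SKBG-1(S).

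The 5′ edge of the TRIB3 cluster, chr20:381203-381301, was covered in both SKBG-1(R) lists, with a log2 enrichment of 3.81 and 3.09. No SKBG-1(S) or DMSO list covered it, but an SKBG-1(S) replicate 2 peak at 4.89 stood close by, at chr20:381309-381339. The edge is thus not shown to be particular to SKBG-1(R). Part of that edge lies just before an annotated TRIB3 start and is shown as the stretch with SKBG-1(R) peaks alone (GRCh38.p14, 5′ to 3′ on the plus strand, capitals marking bases under peaks of both SKBG-1(R) lists).
TRIB3 chr20:381216-381245: CGGGAGGGGGCGGCCGGGGAAGGGGGCGCC
Of these 30 bases, 66.7% are G and 90.0% are G or C, where the median over the 35116 RefSeq windows of all genes is 28.7% and 58.7%. A stretch this short was picked for its place under the peaks, and its composition is a description.

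CARS encodes cysteinyl-tRNA synthetase, which charges tRNA with cysteine. It held 4 and 23 peaks in the SKBG-1(R) lists and 2 and 8 in the SKBG-1(S) lists, against 0 and 0 in the DMSO lists. Per 10000 peaks it held 20.5 and 15.5 in the SKBG-1(R) lists and 16.2 and 20.2 in the SKBG-1(S) lists. Its 37 peaks were all intronic, as were those of ATF3 and SESN2, but they spread over 14196 nt of a first intron of up to 15086 nt (gene at chr11:3000922-3057613, minus strand). The peaks reached 14400 nt beyond the annotated start, and 9 of 37 lay within 3 kb of it. SKBG-1(R) replicate 2 alone held 23 of them.

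The site of CARS with most lists, chr11:3057030-3057141, lay close to the start and reached a log2 enrichment of 4.26 in SKBG-1(R) replicate 1, 3.91 in SKBG-1(S) replicate 1 and 3.44 in SKBG-1(S) replicate 2. Its neighbour chr11:3056902-3057029 had 4.43 in replicate 2 of SKBG-1(R) and 3.20 in that of SKBG-1(S). Deep in the intron, chr11:3050488-3050703 reached 3.93 and 3.34 in the SKBG-1(R) lists and 4.00 in SKBG-1(S) replicate 2, and chr11:3046435-3046549 had 3.19 and 3.52 in the replicate 2 lists of SKBG-1(R) and SKBG-1(S). Both compounds thus gave CARS peaks near the start and deep in the intron.

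SESN2 encodes sestrin 2, a leucine-binding inhibitor of mTORC1 signalling. It held 0 and 1 peaks in the SKBG-1(R) lists and 0 and 4 in the SKBG-1(S) lists, against 0 and 0 in the DMSO lists. With 5 peaks in all it was the sparsest member and fell below the minimum of 10 peaks for testing. All were in the intron after the only annotated start (gene at chr1:28259527-28282491, plus strand), inside a run of 330 nt. Its site chr1:28260297-28260473 had a log2 enrichment of 3.34 in replicate 2 of SKBG-1(R) and 3.99 in that of SKBG-1(S); the single SKBG-1(R) peak overlapped 2 SKBG-1(S) peaks, by 1 nt in the case of the first. SESN2 thus rests on the replicate 2 lists.

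GRB10 encodes an adaptor that binds insulin and IGF receptors and dampens their signal. It had the most peaks of the group, with 8 and 19 in the SKBG-1(R) lists and 8 and 12 in the SKBG-1(S) lists, against 0 and 3 in the DMSO lists. Per 10000 peaks these were 41.0 and 12.8 in the SKBG-1(R) lists and 64.7 and 30.2 in the SKBG-1(S) lists, against 0 and 8.16 in the DMSO lists. The 50 peaks stood in 2 clusters around alternative starts of the gene (chr7:50590063-50793462, minus strand). At the start furthest 5′, chr7:50792895-50793125 held peaks in 5 lists, with a log2 enrichment of 3.65 and 3.96 in the SKBG-1(R) lists, 3.93 and 5.35 in the SKBG-1(S) lists and 3.86 for DMSO replicate 2. Beside it, chr7:50792710-50792875 reached 3.69 and 3.99 in the SKBG-1(R) lists, 3.58 and 3.36 in the SKBG-1(S) lists and 3.48 in DMSO replicate 2, and chr7:50793134-50793185 had 4.05 and 5.15 with SKBG-1(R) and 3.96 in SKBG-1(S) replicate 2.

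At the other cluster, chr7:50782216-50782426 was again in 5 lists, with 5.18 and 3.92 in the SKBG-1(R) lists, 5.15 and 4.65 in the SKBG-1(S) lists and 3.44 for DMSO replicate 2. The GRB10 sites of DMSO replicate 2 were thus 3 of the sites that both compounds shared. All 4 member peaks of DMSO replicate 2, including the 1 in TRIB3, were overlapped by peaks in all 4 compound lists. Of the 466 bases they covered, 465 were also covered in compound lists.

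RefSeq gives the sequence under part of each GRB10 cluster (GRCh38.p14, minus strand, 5′ to 3′). The stretch at the 5′ cluster lies in the intron after the first exon, and its capitals mark bases under peaks of all 4 compound lists and DMSO replicate 2. The stretch at the other cluster lies just 5′ of another annotated start and was under peaks of both SKBG-1(R) lists and SKBG-1(S) replicate 2; its capitals mark bases under peaks of both stereoisomers.
GRB10 chr7:50792970-50793124: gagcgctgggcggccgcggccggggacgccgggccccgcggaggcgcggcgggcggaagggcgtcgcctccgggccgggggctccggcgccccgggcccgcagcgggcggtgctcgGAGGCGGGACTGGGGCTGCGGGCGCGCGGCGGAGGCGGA
GRB10 chr7:50782911-50782990: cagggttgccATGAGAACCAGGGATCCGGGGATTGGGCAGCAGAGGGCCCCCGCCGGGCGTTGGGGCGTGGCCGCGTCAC
The 155 bases of the 5′ stretch are 88.4% G or C, a share that 0.0228% of the RefSeq windows exceeded, and 54.2% G. The 39 bases in capitals are where peaks of DMSO replicate 2 and all 4 compound lists coincided. The 80 bases of the other stretch are 72.5% G or C and 43.8% G. The windows hold 300 bases, more than either stretch, so the shares are a description.

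ARHGEF2 encodes GEF-H1, an exchange factor for small GTPases that is held on microtubules. It held 4 and 13 peaks in the SKBG-1(R) lists and 4 and 9 in the SKBG-1(S) lists, against 0 and 0 in the DMSO lists. Per 10000 peaks these were 20.5 and 8.76 in the SKBG-1(R) lists and 32.3 and 22.7 in the SKBG-1(S) lists. It was the member with the most peaks outside introns, with 17 of 30 in introns, 10 in 5′ UTRs and 3 in coding exons by the authors' class. The peaks lay within 3598 nt around a group of starts in the middle of the gene (chr1:155946851-156007070, minus strand).

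The sites chr1:155977836-155978069 and chr1:155978090-155978218 held peaks in all 4 compound lists. The first reached 3.38 and 3.93 in the SKBG-1(R) lists and 4.22 and 4.65 in the SKBG-1(S) lists, and the second 3.56 and 3.89 in the SKBG-1(R) lists and 4.26 and 3.41 in the SKBG-1(S) lists. Further 5′, chr1:155978494-155978615 had 3.17 in replicate 2 of SKBG-1(R) and 4.19 in that of SKBG-1(S), and chr1:155978616-155978729 had 3.36 in replicate 2 of SKBG-1(R) and 4.74 in that of SKBG-1(S). A piece of the site in 4 lists and a site of the replicate 2 lists are in RefSeq and are shown to compare them (GRCh38.p14, minus strand, 5′ to 3′, capitals marking bases under peaks of both stereoisomers).
ARHGEF2 chr1:155978170-155978199: GTGGGTAGGGGTGGGGGGAGCGGCAGACGC
ARHGEF2 chr1:155978616-155978729: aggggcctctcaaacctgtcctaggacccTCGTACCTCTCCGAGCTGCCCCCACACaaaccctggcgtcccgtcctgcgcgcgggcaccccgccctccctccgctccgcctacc
The 30 bases come from the site in 4 lists but were themselves under peaks of 3 lists. They are 63.3% G and 76.7% G or C, and the 114 bases of the other site are 21.1% G and 71.1% G or C. These ARHGEF2 stretches thus differed in their share of G, while in G or C both were above the RefSeq window median of 58.7%. Both were picked for their place under peaks, so this is a description.

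The position of the peaks was not used to choose the genes, and in each compound list they lay nearer to transcript starts than other peaks did. Over all lists, 140 of 172 member peaks (81.4%, 95% Wilson interval 74.9 to 86.5) lay within 3 kb after an annotated transcript start, against 49.5% (48.9 to 50.2) of the peaks of other genes. The median distance from the nearest start was 384 nt for the members and 3092 nt for other genes. In the SKBG-1(R) lists 92.3% and 71.6% of member peaks lay within 3 kb, against 72.0% and 42.0% of other peaks. In the SKBG-1(S) lists the shares were 95.8% and 81.8%, against 67.7% and 58.5%. The difference had the same direction in each of the 4 compound lists, with and without the long SKBG-1(R) replicate 2 list. Peaks of 1 gene are not independent, so the intervals cover counting error only and no test was made.

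Among the genes, CARS departed from this pattern. All peaks lay within 3 kb of a start in 3 of the 5 members with at least 10 peaks, and in 26.6% of the 436 other genes with as many. For GRB10 the number was 46 of 50 and for CARS 9 of 37. The remaining GRB10 peaks lay 5′ of the starts in its other cluster, so their distance ran to a start in its 5′ cluster. Every one of the 172 peaks lay wholly inside a first intron of some annotated transcript, as did 80.8% of the peaks of other genes; all peaks of a gene did so in 53.4% of the other genes. A gene with many annotated starts, such as GRB10 with 25, meets these criteria more easily than SESN2 with 1.

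**Figure D2:**
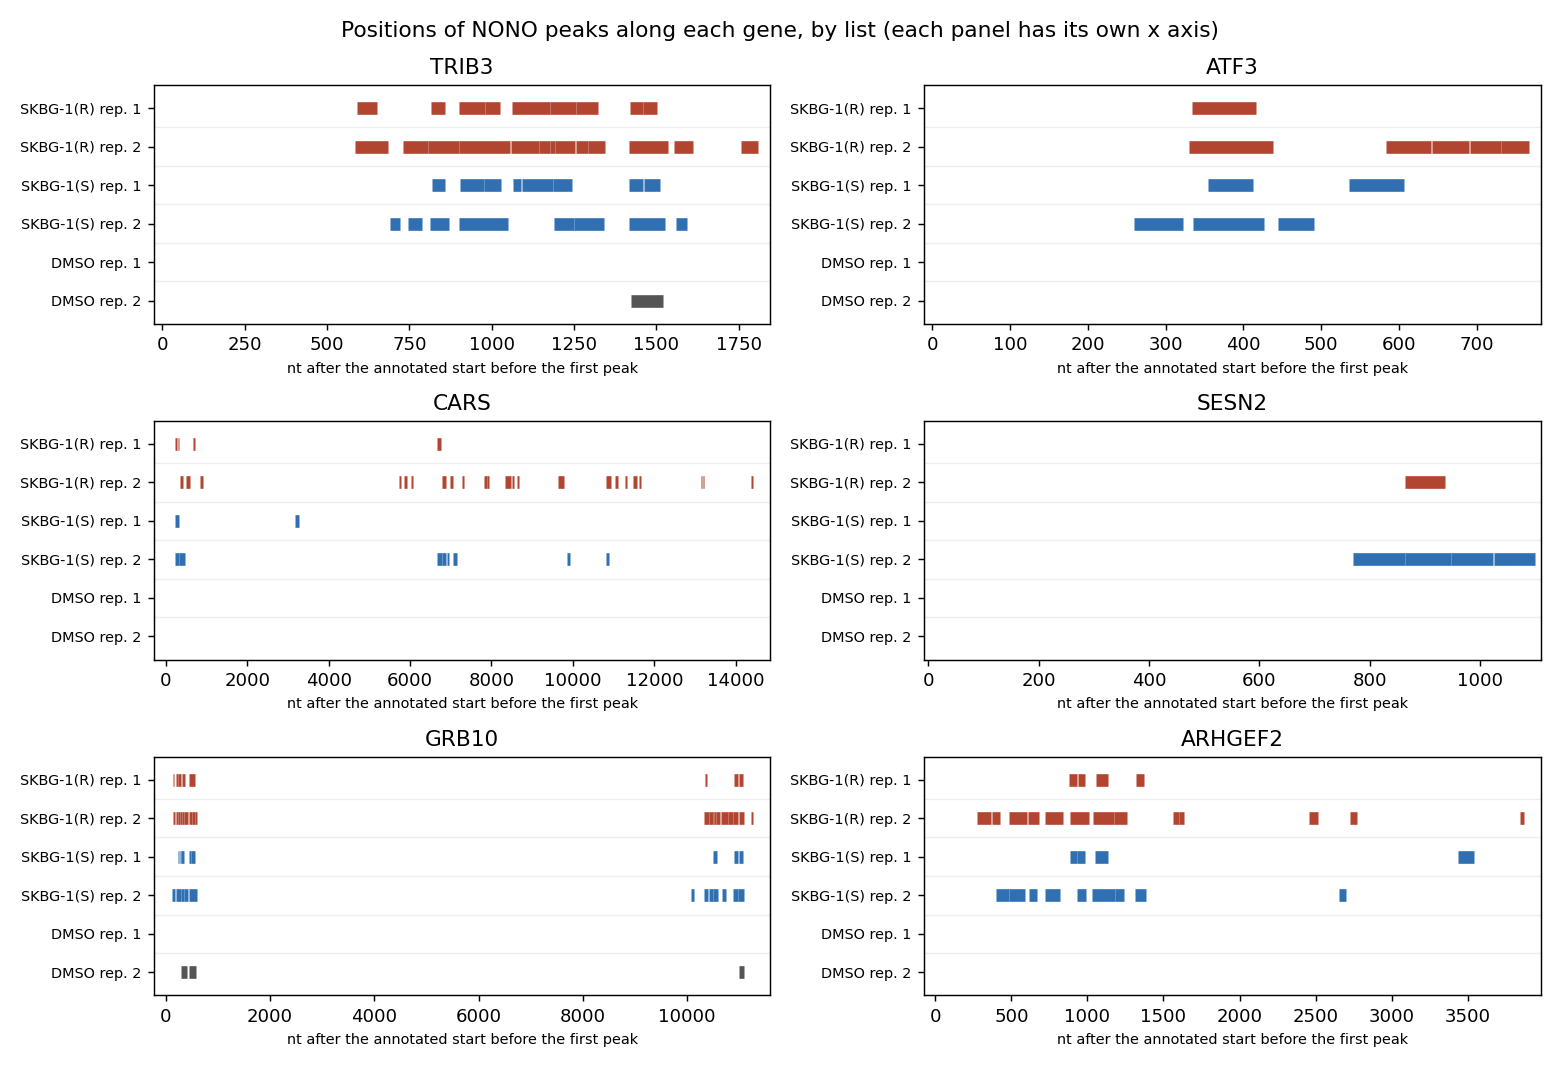
Each bar is 1 NONO peak, drawn to scale by its distance in nt from the annotated start nearest before the gene's first peak; rows are the 6 lists and each panel has its own axis. TRIB3, ATF3, SESN2 and ARHGEF2 peaks sit in 1 window, GRB10 peaks in 2, and CARS peaks spread over 14196 nt.

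By the authors' classes, 54.1% of member peaks (46.6 to 61.3) were in the proximal intron class, next to splice sites, against 21.7% (21.2 to 22.2) of other peaks. The distal intron class held 30.8% of member peaks and 58.4% of other peaks. All intron classes together held 84.9% (78.8 to 89.5) of member peaks and 90.1% (89.8 to 90.5) of other peaks. For other genes this total includes intron classes beyond the proximal and distal ones, and for the members it does not. 5′ UTRs held 13.4% of member peaks and 5.04% of other peaks, and these came from TRIB3 (9), GRB10 (4) and ARHGEF2 (10). Over all lists the median log2 enrichment of member peaks was 3.64 and that of other peaks 3.72. In the SKBG-1(R) lists it was 3.67 and 3.58 for members, against 3.77 and 3.75 for other peaks. In the SKBG-1(S) lists it was 3.80 and 3.64, against 3.76 and 3.64, so the direction was not the same in each list. The median −log10 p was 8.29 for member peaks and 6.25 for other peaks.

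**Figure D3:**
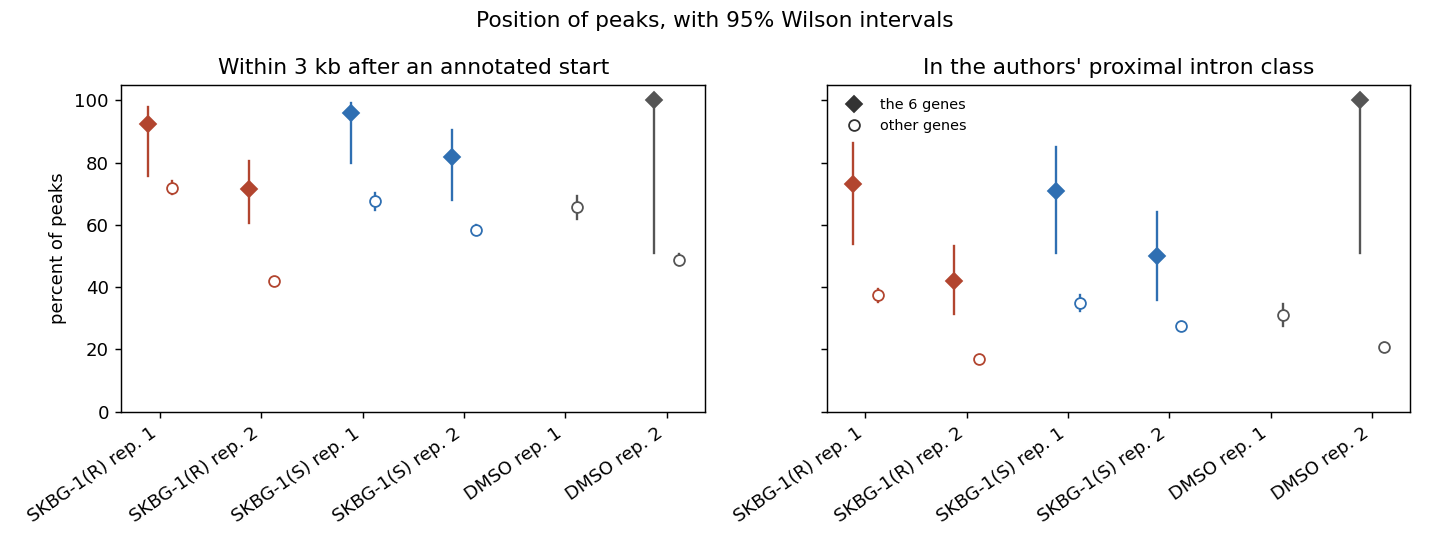
Percent of peaks within 3 kb after an annotated start (left) and in the authors' proximal intron class (right), by list; diamonds are the 6 genes, open circles all other genes and lines 95% Wilson intervals for counting error. The 6 genes lie above other genes in the 4 compound lists, at 71.6 to 95.8% against 42.0 to 72.0% within 3 kb; DMSO replicate 1 held 0 member peaks and DMSO replicate 2 held 4.

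The stereoisomers shared most of their peaks on TRIB3 and GRB10 and a smaller share of those on CARS and ATF3. Of the 100 SKBG-1(R) peaks, 66 (66.0%, 56.3 to 74.5) were overlapped by an SKBG-1(S) peak by at least 1 nt on the same strand, and 57 of the 68 SKBG-1(S) peaks (83.8%, 73.3 to 90.7) by an SKBG-1(R) peak. For other genes the shares were 26.9% of SKBG-1(R) peaks and 70.5% of SKBG-1(S) peaks, but choosing members by peaks in the compound lists favours overlap between them, so nothing is read from this contrast. By list, SKBG-1(S) peaks overlapped 24 of 26 and 42 of 74 member peaks of SKBG-1(R), and SKBG-1(R) peaks overlapped 22 of 24 and 35 of 44 member peaks of SKBG-1(S). Among SKBG-1(R) peaks, 7 of 27 were shared in CARS, 11 of 17 in ARHGEF2, 3 of 6 in ATF3, 25 of 27 in GRB10 and 19 of 22 in TRIB3. Among SKBG-1(S) peaks these were 7 of 10 in CARS, 11 of 13 in ARHGEF2, 3 of 5 in ATF3, 19 of 20 in GRB10 and 15 of 16 in TRIB3. The share depended on the limits: with a log2 enrichment of at least 4 and a −log10 p of at least 5 it was 38.5% of SKBG-1(R) peaks and 45.5% of SKBG-1(S) peaks.

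Counted in bases, the compounds shared 2899 nt, which was 52.3% of the 5541 nt covered with SKBG-1(R) and 71.6% of the 4051 nt covered with SKBG-1(S). Merging overlapping peaks of all lists gave 71 regions. Both stereoisomers had a peak in 27 (38.0%), against 14.3% of the 16348 regions of other genes, a contrast the choice of members bears on too. SKBG-1(R) alone had 33, of which 20 were in CARS, and SKBG-1(S) alone 11. In CARS, SKBG-1(S) peaks overlapped 3 of 4 peaks of SKBG-1(R) replicate 1 but 4 of 23 of the long replicate 2 list. Regions of SKBG-1(R) alone are thus not shown to be a trait of that stereoisomer. DMSO had a peak in 4, all of them also held by both compounds. Regions in at least 4 lists numbered 9, being 3 in TRIB3, 3 in GRB10, 2 in ARHGEF2 and 1 in ATF3.

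**Figure D4:**
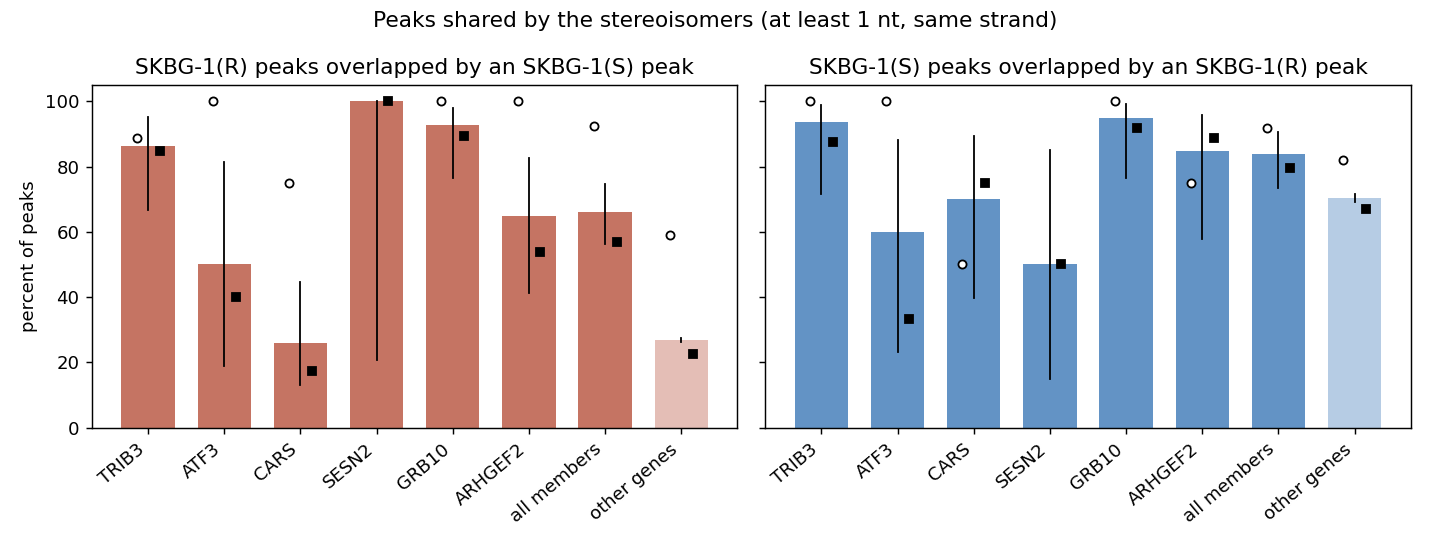
Percent of SKBG-1(R) peaks overlapped by an SKBG-1(S) peak (left) and of SKBG-1(S) peaks overlapped by an SKBG-1(R) peak (right), per gene, over the 6 genes and over other genes. Bars pool both lists, lines are 95% Wilson intervals, open circles are replicate 1 and filled squares replicate 2; the 6 genes reach 66.0% and 83.8%, other genes 26.9% and 70.5%.

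Numbers of peaks were then compared between the stereoisomers, at the same dose and time, as this contrast was not used to choose the members. Peaks per 10000 were tested on the log2 scale with limma over all 465 genes with at least 10 peaks, and 0 genes were called at an adjusted p under 0.05 (0% of those tested; 5 had an unadjusted p under 0.05). The 5 members tested were among the uncalled. The log2 fold change of SKBG-1(R) over SKBG-1(S) was −0.67 ± 1.09 (SE, 95% interval −2.96 to 1.61) for TRIB3, −0.86 ± 1.0 (−2.95 to 1.24) for ATF3 and −0.01 ± 1.05 (−2.22 to 2.19) for CARS. It was −0.80 ± 1.06 (−3.01 to 1.40) for GRB10 and −0.80 ± 1.06 (−3.01 to 1.42) for ARHGEF2. Each had an adjusted p of 0.995 by limma. The intervals leave room for differences of more than 4-fold in either direction for CARS and towards SKBG-1(S) for the others, so a like response was not shown.

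All 5 estimates were below 0, with a median of −0.80 against −0.08 over all genes tested, but the sign depended on the scaling: CARS was at 0.35 with TMM factors, and all 5 were above 0 (0.04 to 0.95) with no scaling, where the median of all genes stood at 0.77. Relative to that median, TRIB3, ATF3, GRB10 and ARHGEF2 were lower and CARS higher under all 3 scalings, but not under every alternative. TRIB3 stood above it by 0.44 without SKBG-1(R) replicate 2, by 0.31 without SKBG-1(S) replicate 1 and by 0.90 with lists of equal length, and GRB10 by 0.08 without SKBG-1(R) replicate 2. CARS stood at −0.29 relative to it without SKBG-1(R) replicate 1 and at −0.17 without SKBG-1(S) replicate 2. With summed peak width, and also with every gene kept, CARS stood at −0.11 relative to it. The SKBG-1(R) lists lay wholly below the SKBG-1(S) lists in ATF3 and ARHGEF2, 2 of the 5 members, where 15.9% of all genes tested did so; 0 members lay wholly above, where 6.45% did. SESN2, untested for its few peaks, stood at −0.74. Leaving out SKBG-1(R) replicate 1 let 23 genes be called in this comparison, 0 of them members.

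**Figure D5:**
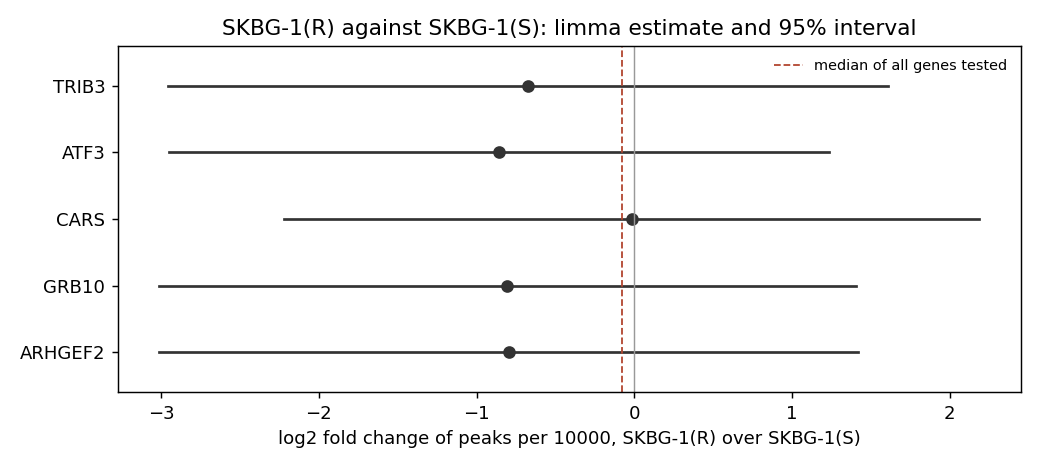
Log2 fold change of peaks per 10000, SKBG-1(R) over SKBG-1(S), for the 5 members tested; points are limma estimates from 2 lists a group, lines 95% intervals and the dashed line the median of all 465 genes. All intervals span 0; the points at −0.86 to −0.01 turn positive with no scaling, and CARS also with TMM factors.

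Against DMSO the members' values describe how they were chosen. Over DMSO, the log2 change with SKBG-1(R) was 2.17 for TRIB3, 0.94 for ATF3, 2.30 for CARS, 1.89 for GRB10 and 2.00 for ARHGEF2, while with SKBG-1(S) it was 2.85 for TRIB3, 1.80 for ATF3, 2.31 for CARS, 2.69 for GRB10 and 2.80 for ARHGEF2. For SESN2 the SKBG-1(R) change was 0.10 and the SKBG-1(S) change 0.84. The median over all genes tested was 0.26 in the comparison of SKBG-1(R) and 0.13 in that of SKBG-1(S). All 4 compound lists lay above both DMSO lists in 5 of 5 members tested, where 5.59% of genes did so. For SKBG-1(R) alone it was 10.8% of genes and for SKBG-1(S) alone 13.5%. In SESN2, untested for its few peaks, the lists of neither compound lay wholly above DMSO. Choosing members by peaks in the compound lists favours such a count, so nothing is read from this contrast. Both comparisons use the same DMSO lists. In the test across genes 0 were called in either (0% each), and an unadjusted p under 0.05 was seen for 15 genes with SKBG-1(R) and for 6 genes with SKBG-1(S).

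Most further genes looked up from the stress pathway held no NONO peak. The members had been picked for their peaks, and the share of all annotated genes with a peak was not computed. The counts are therefore a description and do not set the members apart from their pathway. Of 41 further ATF4 target genes, 5 held a peak in any list, 3 could be tested and 0 passed the test in any of the 3 comparisons. SLC7A5, which carries leucine and other bulky amino acids, held 12 and 225 peaks in the SKBG-1(R) lists and 30 and 72 in the SKBG-1(S) lists, against 10 and 50 in the DMSO lists, and so was bound in every list. SLC7A1, a cationic amino acid transporter, held 10 and 8 in the SKBG-1(R) lists and 3 and 2 in the SKBG-1(S) lists, against 0 and 0 in the DMSO lists. SLC6A9, a glycine transporter, held 1 and 12 in the SKBG-1(R) lists and 0 and 3 in the SKBG-1(S) lists, against 0 and 0 in the DMSO lists. EIF4EBP1 and GPT2 held 1 peak each, in SKBG-1(R) replicate 2. The log2 change of SKBG-1(R) over DMSO was −0.54 ± 0.82 for SLC7A5, 2.37 ± 1.16 for SLC7A1 and 1.28 ± 0.93 for SLC6A9 (SE, limma adjusted p = 0.991 each). That of SKBG-1(S) over DMSO was 0.54 ± 0.82 for SLC7A5, 1.87 ± 1.16 for SLC7A1 and 0.71 ± 0.93 for SLC6A9, each with an adjusted p of 1 by limma. SLC7A1, like ATF3, CARS and ARHGEF2, thus had peaks in every compound list and 0 in the DMSO lists.

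Counts for other groups are likewise a description, without a share over all annotated genes to set them against. Of 20 other aminoacyl-tRNA synthetase genes looked up, 0 held a peak. Regulators of the integrated stress response held a peak in 1 of 15 (NCK1), genes of the unfolded protein response in 2 of 13 (DNAJC3 and PDIA4, 2 peaks each), and NRF2 targets and heat shock genes in 2 of 15 (BAG3 and OSGIN1, 1 each). Immediate early and p53 stress genes held one in 2 of 17 (IER2 with 6 and CDKN1A with 5), and inhibitors of mTORC1 and insulin signals in 4 of 16, led by IRS2 with 5. None of these reached 10 peaks.

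The C/EBP-ATF response element, searched as TGATGNAA on both strands of RefSeq windows from 250 bases before to 50 after a start, was found in 3.62% of all 35116 windows. All 6 members had windows, 17 in all, and 2 windows matched, 1 of 2 for ATF3 and 1 of 2 for CARS (listed in RefSeq as CARS1). They are printed 5′ to 3′ on the strand of the match with the element in capitals, plus strand in both cases.
ATF3 chr1:212565205-212565234: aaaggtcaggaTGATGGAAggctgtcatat
CARS chr11:3057407-3057436: ttcctagaatcTGATGCAAccgccgccccg
The CARS element overlaps a RefSeq start that lies 314 nt from the middle of the closest CARS peak. The ATF3 element belongs to a RefSeq start that lies 43799 nt from the middle of the closest ATF3 peak. In the other windows these letters do not occur.

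Outside the group, the 5 genes whose log2 peaks per 10000 over the 6 lists were most like the mean of the 5 tested members were ACTB (r = 0.991), ATXN1 (0.976), ELOVL5 (0.965), KCMF1 (0.964) and ANKRD13B (0.949), by Pearson's r over the same 6 lists. ACTB, which encodes beta-actin, held 2 and 6 peaks in the SKBG-1(R) lists and 2 and 4 in the SKBG-1(S) lists, against 0 and 0 in the DMSO lists. ATXN1 held 2 and 6 in the SKBG-1(R) lists and 3 and 4 in the SKBG-1(S) lists, against 0 and 0 in the DMSO lists. These genes had few peaks, and the 6 lists share their lengths with the members' profile, so the likeness is a description.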

How the data were processed

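Peaks of NONO eCLIP in 22Rv1 cells were analysed in 6 lists, 2 per group, from 12 libraries (6 immunoprecipitates and their inputs). Groups and replicate numbers came from the sample titles. The UV dose was 400 mJ, as the labels' protocols give it. The authors deposited a −log10 p and a log2 enrichment over input for each peak, called per replicate and not on pooled samples, with a gene and a class of region. Every deposited log2 value and −log10 p was at least 3, so no filter was added; 0 member peaks reached the cap of 400. The tools named per the submitters' processing notes are cutadapt 1.9 and STAR 2.4.0i, and 2 builds appear there, hg19 and GRCh38 (hg38). The peak caller is not given in the sources used here. Coordinates are GRCh38: 99.5% of 9850 deposited transcripts matched GENCODE 29 to within 1 nt, and that release supplied starts and introns. Peaks with a joint gene name (344, 1.31%; 0 with a member) and 60 intergenic peaks entered no gene test. Some items are not reported here.

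Members, gene lists and tests were chosen with earlier results of these data known. Peaks per 10000 were tested by limma 3.58.1 (R 4.3.3) as log2 values with a prior count of 2 scaled to list size, a trended prior variance and all 6 lists in 1 fit, at a Benjamini-Hochberg threshold of 0.05. The named sites are up to 4 regions per member with a peak of both stereoisomers, ordered by lists and then enrichment; from each gene list the up to 5 genes with most peaks are named, and the 5 genes most like the members. The sequences shown were chosen after the peaks were seen. Distances run from a peak's middle to the nearest annotated start before it. Read depth is unknown, and list length limits the precision. On simulated lists of the 465 genes for SKBG-1(R) against SKBG-1(S), with 200 genes changed and a spread of 0.6 (SD, natural log), limma found 1.5% of the 4-fold changes, 20.0% of the 16-fold ones and 0 false genes; with a spread of 0.1 it found 18.0% and 78.0% of them, with 0 and 1 false genes. Both spreads were set by hand. Python 3.11.15 with pandas 2.3.3 and scipy 1.17.1 was used; TMM factors came from code written for this work. The alternatives were TMM or no scaling, another prior count, no minimum of peaks, stricter limits, lists of equal length, summed peak width, joint names, a replicate block, each list left out, a stricter overlap and, added after seeing the data, joining abutting peaks.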

Additional observations from a re-analysis of the deposited data

How the results depend on the processing

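TRIB3 and GRB10 were tested between the stereoisomers under every alternative fit; ARHGEF2 and CARS had under 10 peaks with stricter limits and with lists of equal length, ATF3 in these and when abutting peaks were joined, and SESN2 reached a test only with every gene kept. In the fits that held them 0 members were called, with adjusted p values by limma of 0.611 to 1; 59 of 70 member values kept the sign and 11 turned. Many of these signs could not turn. The estimates equal those of the main fit by construction with the replicate block, joint names or every gene kept. Leaving out a DMSO list moves them only through the prior count. The number of kept signs thus overstates how stable the values are. With no scaling the log2 fold changes of SKBG-1(R) over SKBG-1(S) were 0.36 for TRIB3, 0.035 for ATF3, 0.95 for CARS, 0.29 for GRB10 and 0.22 for ARHGEF2. CARS was at 0.35 with TMM factors, and TRIB3 at 0.20 with lists of equal length. Leaving out 1 list at a time gave −1.67 to 0.25 for TRIB3, −0.18 to 0.12 for CARS, −1.52 to −0.11 for GRB10 and −1.28 to −0.30 for ARHGEF2. For ATF3 it gave −1.04 to −0.87, with 3 of the 6 lists left out. Without SKBG-1(R) replicate 2 or either SKBG-1(S) list ATF3 fell below 10 peaks. Its narrow range thus rests on SKBG-1(R) replicate 1 and on the DMSO lists, which hardly enter this contrast. A group left with 1 list was assumed to vary like the others. Every such list left out gave 0 to 23 genes called between the stereoisomers and 0 to 23 for SKBG-1(R) against DMSO. The 23 came without SKBG-1(R) replicate 1, which leaves the long replicate 2 list alone in its group. SKBG-1(R) against DMSO gave 1 call, AFF3, with summed peak width, with joint names and without DMSO replicate 2; the cause was not tested. SKBG-1(S) against DMSO gave 0 calls throughout.

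The replicate block gave 0 calls for SKBG-1(R) against SKBG-1(S), 1 (AFF3) for SKBG-1(R) against DMSO and 0 for SKBG-1(S) against DMSO. Deviations of replicate 1 from its group mean correlated at 0.42 to 0.57 between groups over genes, but the labels do not tie replicate numbers to a shared batch.

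The share of member SKBG-1(R) peaks overlapped by SKBG-1(S) was 38.5% with stricter limits and 94.1% with lists of equal length. The share of SKBG-1(S) peaks overlapped by SKBG-1(R) was 72.1% when at least 50% of both peaks had to overlap and 45.5% with stricter limits. The intron share stayed at 82.7 to 87.5% with each list left out. Without a known read depth, list length limits every count above.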
